A study of Mus musculus with 3 samples.

Results

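The 6 genes described here encode the adhesion molecules with which blood and lymphatic endothelium holds leukocytes: Madcam1, Sele, Selp, Vcam1, Icam1 and Icam2. They were taken by gene symbol from the 32285 gene rows measured in each of 3 single-cell RNA libraries of mouse small intestine, and all 6 were present in every library. The libraries are 3 replicates of 1 group: endothelial cells of wild-type C57Bl/6 females aged 9 to 10 weeks, each intestinal sample pooled from 4 animals and taken without the duodenum. Per the labels' protocols, epithelium was stripped with EDTA and DTT, the rest was digested with Liberase and DNase, and live CD45-negative, CD31-positive, PDPN-positive cells were sorted. The labels do not say whether the libraries came from separate animals, so every p-value rests on the spread between these 3 libraries, which may be technical. That spread is estimated with information shared across genes. A very small p-value therefore does not stand for close agreement of many libraries.

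Leukocytes leave the blood in steps. Selectins (Sele, Selp) slow them on venular endothelium, chemokines on the vessel wall activate their integrins, and immunoglobulin-family molecules hold them firmly: Icam1 and Icam2 bind the beta-2 leukocyte integrins, Vcam1 binds integrins that contain the Itga4 product, and Madcam1, the mucosal addressin, binds the gut-homing integrin of the Itga4 and Itgb7 products. Madcam1 is known from venules of the intestinal lamina propria and Peyer's patches, P-selectin (the Selp protein) from the Weibel-Palade granules of venous endothelium, and Icam1, Vcam1 and Sele as classical targets of the transcription factor NF-kB in activated endothelium. Lymphatic endothelium uses Icam1 and Vcam1 in the passage of dendritic cells into lymph.

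In the GENCODE M21 annotation of GRCm38 (mm10), Sele lies on chromosome 1 at 164048234 to 164057677 and Selp at 164115264 to 164150026, both on the plus strand and 57.6 kb apart. Icam1 lies on the plus strand of chromosome 9 at 21015985 to 21028817, only 556 bases before Icam4. Madcam1 lies on chromosome 10 at 79664559 to 79668537 (plus strand), Vcam1 on chromosome 3 at 116109949 to 116129688 (minus strand) and Icam2 on chromosome 11 at 106377656 to 106388075 (minus strand). RefSeq promoter windows (GRCm38.p6) matched 4 of the 6 genes, and their 250 bases before the start are shown. Vcam1 and Icam2 had no matching window, so they are absent for that reason and not for their levels. Capitals mark GGAANNNCC on either strand, a short NF-kB-like pattern. They span chr10:79664309-79664558, chr1:164047984-164048233, chr1:164115014-164115263 and chr9:21015690-21015939 in the order printed, all on the plus strand.
Madcam1: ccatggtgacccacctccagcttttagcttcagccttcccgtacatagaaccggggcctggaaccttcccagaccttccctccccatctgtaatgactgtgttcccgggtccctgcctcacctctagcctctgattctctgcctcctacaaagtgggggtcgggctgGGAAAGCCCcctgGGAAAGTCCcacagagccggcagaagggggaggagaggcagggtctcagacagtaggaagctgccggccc
Sele: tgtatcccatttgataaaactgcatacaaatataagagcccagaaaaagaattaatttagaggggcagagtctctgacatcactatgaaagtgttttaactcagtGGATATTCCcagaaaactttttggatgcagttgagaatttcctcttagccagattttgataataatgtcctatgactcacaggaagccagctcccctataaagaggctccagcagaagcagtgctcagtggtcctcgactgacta
Selp: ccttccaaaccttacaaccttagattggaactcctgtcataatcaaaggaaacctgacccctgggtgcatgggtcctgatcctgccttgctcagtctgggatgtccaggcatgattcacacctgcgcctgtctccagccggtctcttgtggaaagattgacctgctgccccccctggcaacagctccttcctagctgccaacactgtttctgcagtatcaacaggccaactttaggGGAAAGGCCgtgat
Icam1: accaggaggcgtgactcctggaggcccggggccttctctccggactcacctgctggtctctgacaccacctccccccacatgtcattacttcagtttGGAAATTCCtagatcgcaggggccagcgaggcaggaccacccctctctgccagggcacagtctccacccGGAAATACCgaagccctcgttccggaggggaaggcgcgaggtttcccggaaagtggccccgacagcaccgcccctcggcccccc
The pattern occurred at 2 places in the Madcam1 window, starting 83 and 70 bases before the start site, and at 2 in the Icam1 window, 153 and 84 bases before it. In the Sele window it was on the minus strand, starting 145 bases before the start site, and in the Selp window it lay 14 bases before it. Of 32851 promoter windows of the same length, 15.7% held the pattern at least once and 1.46% held it at 2 or more places. A match of letters is a description and not a binding site.

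Barcodes were sorted into classes by UMI counts of genes other than these 6. Lymphatic endothelial cells (LEC) had at least 1 Prox1 and 5 Lyve1 UMIs, and blood endothelial cells (BEC) had at least 3 Flt1 UMIs and no Prox1 UMI. BEC were divided by the presence of an Ackr1 UMI, since Ackr1, an atypical chemokine receptor, is a marker of venules. Of 24541 barcodes, 22534 passed the cell filter (500 genes, at most 15% mitochondrial UMIs), and these held 18954 LEC (5689, 5001 and 8264 in libraries 1, 2 and 3) but only 206 BEC (38, 86 and 82). The sort took PDPN-positive cells, and Pdpn is on the LEC marker list used below. The number and levels of the BEC that passed this sort may therefore not stand for blood endothelium of the gut. Ackr1-positive BEC numbered 3, 16 and 0, so that library 2 held most of this class and library 3 none, and Ackr1-negative BEC numbered 35, 70 and 82. Libraries 1 and 2 shared 19 barcodes, libraries 1 and 3 shared 13, and libraries 2 and 3 shared 30.

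The gated classes carried their own markers. Levels are given as CPM, the UMIs of a gene per 1000000 UMIs of its class in that library, and are compared between classes of 1 gene and not between genes. Pdpn, Flt4, Ccl21a and Reln summed to between 12609 and 13976 CPM in LEC, with Mmrn1 of the same list at 0 in every class, against 213 to 294 CPM in BEC. Plvap, Kdr, Emcn, Cd34 and Ptprb summed to 7893, 5175 and 3466 CPM in BEC, against 1781 to 2041 CPM in LEC. The BEC were not pure. Smooth-muscle and pericyte markers summed to 1244, 5161 and 7758 CPM in BEC of libraries 1, 2 and 3, against 154, 724 and 185 CPM in LEC. Fibroblast markers summed to 58.6, 316 and 799 CPM in BEC, against 10.5, 57.0 and 17.8 CPM in LEC. The fibroblast gate was also passed by 2, 20 and 46 BEC, and the smooth-muscle and pericyte gate by 5, 22 and 38. In all, 5, 23 and 49 BEC also passed the gate of another cell type. Values without those barcodes are given beside the genes named below whose call they change.

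Madcam1, the mucosal addressin, marked the Ackr1-positive BEC. Fewer cells of a class and less RNA in each cannot be told apart in summed values. Madcam1 stood at 994 and 1228 CPM in Ackr1-positive BEC of libraries 1 and 2, against 20.7, 3.41 and 1.05 CPM in Ackr1-negative BEC and 0.101, 5.64 and 0.0803 CPM in LEC of libraries 1, 2 and 3. The Ackr1-positive values lay far above all others, although the first rests on 3 barcodes. The 4 Madcam1 UMIs of Ackr1-negative BEC in library 1 came from 1 barcode, and 230 of the 239 Madcam1 UMIs in LEC of library 2 came from 5 barcodes that also held 7 to 43 Flt1 and 9 to 85 Ackr1 UMIs. Macrophages, T cells, B or plasma cells and glia had no Madcam1 UMI. All 30 Madcam1 UMIs of fibroblast-gated barcodes sat in 1 barcode of library 2, which also had 11 Ackr1 UMIs.

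Sele (E-selectin), which is made on activated endothelium, had the same place. It measured 155 and 1138 CPM in Ackr1-positive BEC of libraries 1 and 2, against 98.2, 42.7 and 0 CPM in Ackr1-negative BEC and 3.47, 4.02 and 1.37 CPM in LEC. Ackr1-positive BEC were above both other endothelial classes in libraries 1 and 2, but the value of library 1 is 7 UMIs of 3 barcodes. The Ackr1-negative values again reflected few barcodes: all 19 UMIs of library 1 and 20 of the 25 of library 2 came from 1 barcode each. In LEC of library 2, 98 of the 170 Sele UMIs came from the same 5 barcodes with Flt1 and Ackr1 UMIs as for Madcam1. LEC with no other gate and no Flt1, Ackr1 or Plvap UMI, an alternative chosen after seeing the data, averaged 1.95 CPM. All LEC averaged 2.95 CPM. Sele had no UMI in epithelial barcodes (0 of 16661439 UMIs, with an upper 95% exact Poisson bound of 0.221 CPM), against 2.77 CPM over all LEC, an interval of 2.51 to 3.05 CPM that covers counting error only.

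Selp (P-selectin) was highest in Ackr1-positive BEC among the classes measured, and it was also found in LEC. It stood at 640 and 4109 CPM in Ackr1-positive BEC and at 284, 93.9 and 1.05 CPM in Ackr1-negative BEC, while the LEC values of 44.8, 55.1 and 48.9 CPM were close together. Of the 2334 Selp UMIs of LEC in library 2, 602 came from the same 5 barcodes with Flt1 and Ackr1 UMIs as for Madcam1. LEC with no other gate and no Flt1, Ackr1 or Plvap UMI, an alternative chosen after seeing the data, averaged 46.4 CPM. All LEC averaged 49.6 CPM. All but 1 of the 110 Selp UMIs of Ackr1-negative BEC in libraries 1 and 2 came from a single barcode in each library (55 of 55 and 54 of 55). Epithelial barcodes had 0.549, 0.945 and 0.410 CPM, and B or plasma cells had no Selp UMI.

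Vcam1, the receptor for Itga4 integrins, was shared with stromal and myeloid cells. It measured 110 and 1580 CPM in Ackr1-positive BEC, 5.17, 143 and 26.4 CPM in Ackr1-negative BEC, 226, 176 and 221 CPM in fibroblast-gated barcodes, 144, 320 and 226 CPM in macrophages and 2.93, 8.08 and 3.37 CPM in LEC. The fibroblast, macrophage and Ackr1-positive BEC values overlapped, and the values of Ackr1-negative BEC spread from near the LEC level to near the fibroblast level. In library 2, 58 of the 84 Vcam1 UMIs of Ackr1-negative BEC were in 1 barcode. Of the 342 Vcam1 UMIs of LEC in library 2, 69 came from the same 5 barcodes with Flt1 and Ackr1 UMIs as for Madcam1. All LEC averaged 4.79 CPM, against 2.72 CPM without barcodes of a second gate. LEC with no other gate and no Flt1, Ackr1 or Plvap UMI, an alternative chosen after seeing the data, averaged 2.80 CPM.

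Icam1 was the member with its highest mean level in LEC. It stood at 287 and 1237 CPM in Ackr1-positive BEC, 233, 271 and 286 CPM in Ackr1-negative BEC, 474, 337 and 385 CPM in fibroblasts and 86.5, 185 and 237 CPM in macrophages, against 1699, 1081 and 1563 CPM in LEC. Only the Ackr1-positive BEC of library 2 reached the range of the LEC. Epithelial barcodes had 19.5, 15.5 and 32.0 CPM and B or plasma cells averaged 10.9 ± 1.32 CPM (SD, n = 3).

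Icam2, which unlike Icam1 is known as a constitutive molecule of endothelium, was level across the endothelial classes. It measured 265 and 176 CPM in Ackr1-positive BEC, 207, 162 and 89.6 CPM in Ackr1-negative BEC and 173, 169 and 177 CPM in LEC, so that the 3 classes overlapped. It averaged 4.43 ± 1.63 CPM in fibroblasts, 5.92 ± 6.68 CPM in macrophages and 1.33 ± 0.679 CPM in epithelial barcodes (SD, n = 3 each).

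**Figure D1:**
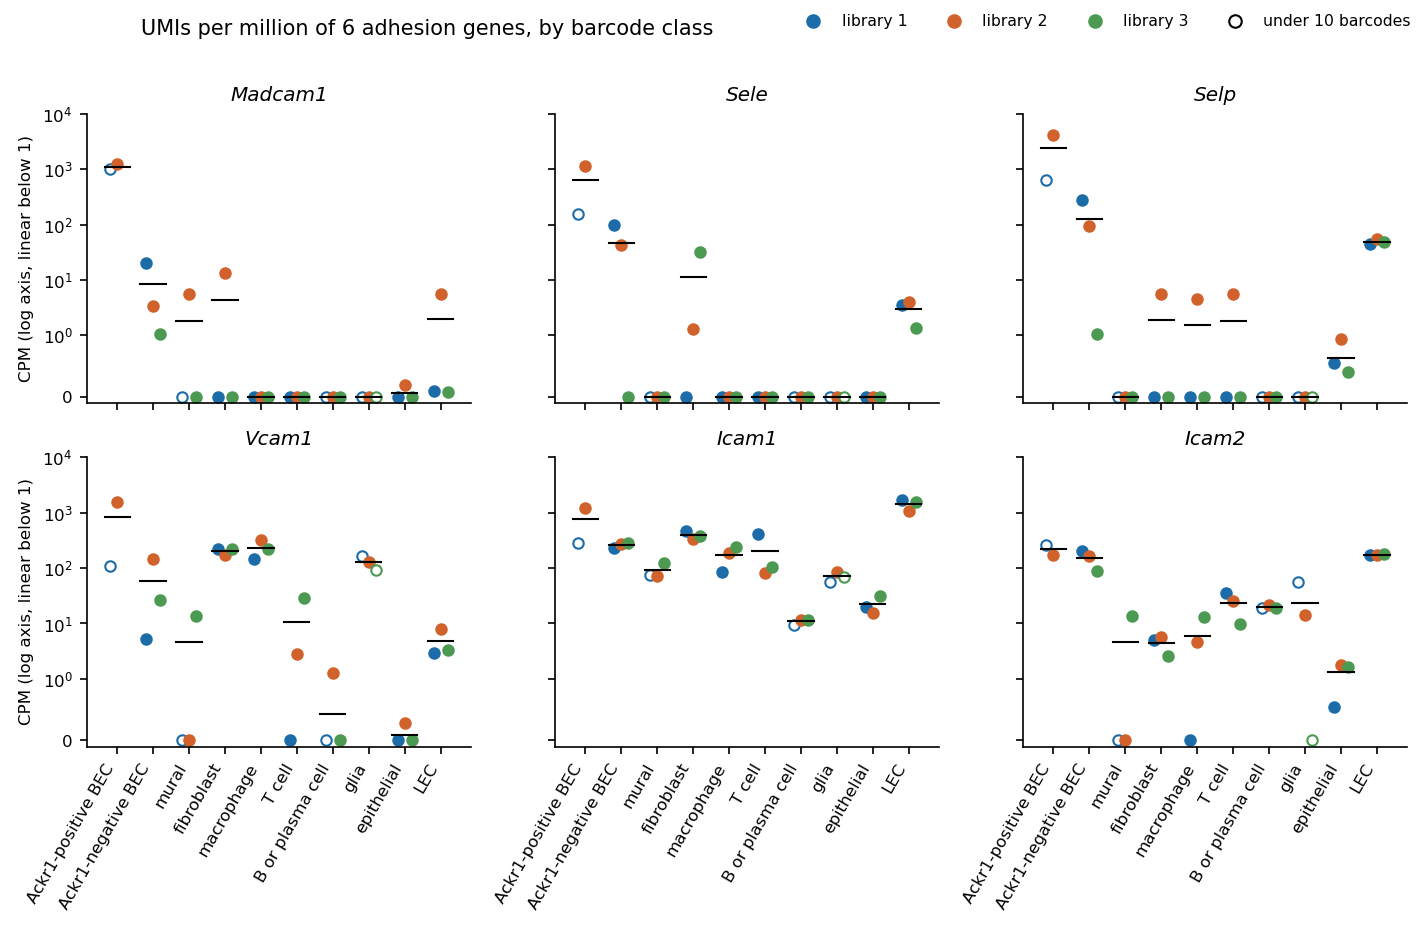
CPM of each gene (y axis, logarithmic above 1 CPM and linear below) in each gated class (x axis), with 1 point per library, open where the class held under 10 barcodes of that library, and a bar at the mean over libraries. Madcam1, Sele and Selp are highest in Ackr1-positive BEC, Icam1 averages 1448 CPM in LEC, and Vcam1 has similar levels in fibroblasts and macrophages.

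Barcodes rich in Madcam1 were then taken whatever gate they passed. Across the 3 libraries, 35 barcodes had at least 3 Madcam1 UMIs, a limit chosen after the values were seen, and 27 of the 35 were in library 2. That they held 96.5% of all 838 Madcam1 UMIs follows from this choice. They also held 54.8% of the Sele UMIs, 26.9% of the Selp UMIs and 17.6% of the Vcam1 UMIs, but 0.325% of the Icam1 UMIs. For comparison, 84.6% of all LEC had an Icam1 UMI and 64.4% an Icam2 UMI. The 35 barcodes had a median depth of 13191 UMIs. All 35 had Selp and Icam1 UMIs, 34 had Ackr1, 31 had Sele, 30 had Vcam1 and 27 had Icam2. By gate, 16 were Ackr1-positive BEC, 5 were LEC, 1 was an Ackr1-negative BEC, 1 was fibroblast-gated, 1 passed more than 1 gate and 11 passed none. Of the 11 without a gate, 7 had a Prox1 UMI, which the BEC gate does not allow, and 1 of these 7 also had only 1 Flt1 UMI. Library 3 held 4 of the 35, with 3 to 89 Ackr1 UMIs each, though none of them passed the BEC gate. The 5 LEC-gated barcodes had 21693 to 51010 UMIs each, against a median of 7217 UMIs over all LEC of library 2.

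Of 5 markers of high endothelial venules, 1 was detected in Ackr1-positive BEC, and the list summed to 44.2 and 4.52 CPM in libraries 1 and 2. Glycam1 and Fut7 had no UMI there, nor had Chst4, an enzyme of sulfated selectin ligands, in classes of 3 and 16 barcodes. Vwf, the granule protein that is stored with P-selectin, stood at 508 and 1111 CPM in Ackr1-positive BEC, against 315, 217 and 85.4 CPM in Ackr1-negative BEC. Cxcl12 was at 442 and 31.6 CPM in Ackr1-positive BEC, against 956, 1010 and 802 CPM in Ackr1-negative BEC, and these groups did not overlap. With no Ackr1-positive BEC in library 3 and 3 in library 1, no test was run between the 2 BEC classes.

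**Figure D2:**
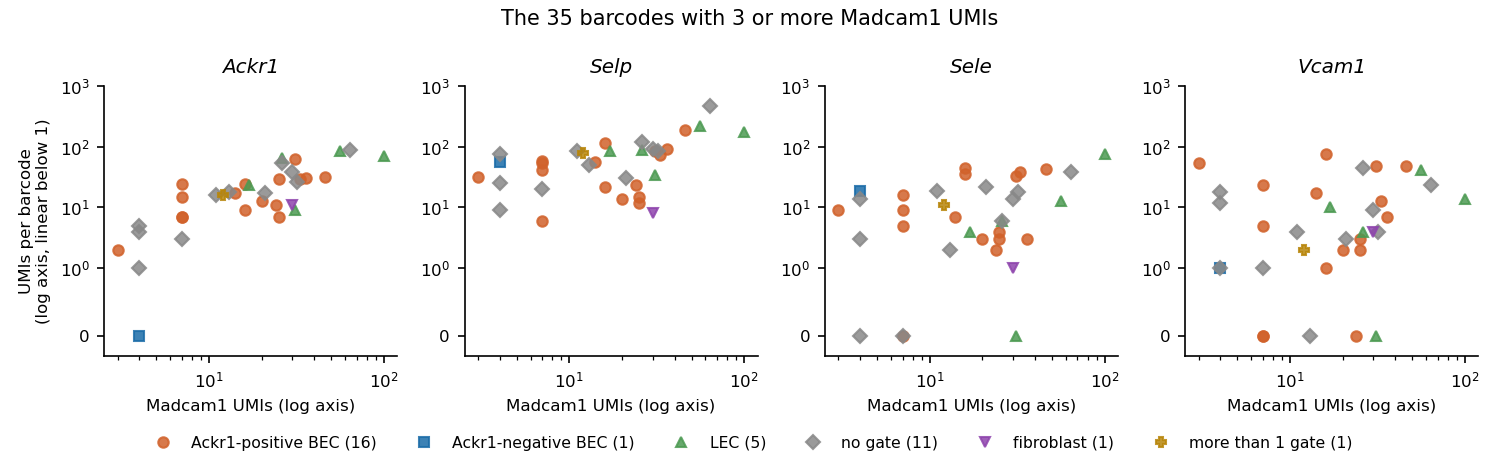
UMIs of Ackr1, Selp, Sele and Vcam1 (y axes, logarithmic above 1) against Madcam1 UMIs (x axis, logarithmic) in the 35 barcodes with at least 3 Madcam1 UMIs, coloured by gate, with the number of barcodes in the legend. The 5 LEC-gated and 11 ungated barcodes lie among the 16 Ackr1-positive BEC, with Ackr1 UMIs in 34 of 35.

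BEC as a whole were then tested against LEC, with raw UMIs summed per library and class and the library as a block. Madcam1, Sele and Vcam1 were higher in BEC and Icam1 was lower, so that 3 members rose and 1 fell among 13839 genes tested, of which 10% rose and 8.85% fell (18.9% in all). Madcam1 stood at 205, 339 and 1.05 CPM in BEC and at 0.101, 5.64 and 0.0803 CPM in LEC. It was higher in BEC in 3 of 3 libraries, with a log2 fold change of 7.20 ± 0.93 (SE; edgeR quasi-likelihood test with Benjamini-Hochberg adjustment over all genes, adjusted p = 0.00062), although the BEC value of library 3 lay below the LEC value of library 2. That BEC value is 1 UMI, with a 95% exact Poisson interval of 0.0267 to 5.87 CPM, so the difference in library 3 rests on a single count. Vcam1 was at 25.1, 538 and 26.4 CPM in BEC and at 2.93, 8.08 and 3.37 CPM in LEC, a log2 fold change of 4.36 ± 0.67 (edgeR adjusted p = 0.00165), with no overlap between the groups. Its size rested on library 2, without which it was 2.94 (edgeR adjusted p = 9.51e-05). Some BEC also passed the fibroblast gate, and fibroblast-gated barcodes held 176 to 226 CPM of Vcam1. The Vcam1 call held under all 18 alternatives (log2 fold change 2.94 to 6.18), which include leaving out barcodes of a second gate.

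The selectin results depended on single libraries. Sele was at 109, 343 and 0 CPM in BEC and at 3.47, 4.02 and 1.37 CPM in LEC, where 0 UMIs in library 3 allow up to 3.16 CPM (3 counts). Its log2 fold change was 4.83 ± 0.93 (edgeR adjusted p = 0.00564), higher in 2 of 3 libraries, and the call was lost without library 1 (log2 fold change 4.65, edgeR adjusted p = 0.107) and in DESeq2 (4.09, adjusted p = 0.140). Selp was at 352, 1195 and 1.05 CPM in BEC and at 44.8, 55.1 and 48.9 CPM in LEC, and its log2 fold change of 2.24 ± 1.31 did not pass (edgeR adjusted p = 0.297). Without library 3 it was 3.76 and passed (edgeR adjusted p = 5.16e-59), and it passed without the barcodes that met a second gate (3.51, edgeR adjusted p = 2.88e-60). It also passed when BEC with a Prox1 UMI and under 5 Lyve1 UMIs were added, an alternative chosen after seeing the data (3.58, edgeR adjusted p = 0.000284).

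Among the ICAMs, Icam1 was at 243, 536 and 286 CPM in BEC, against 1699, 1081 and 1563 CPM in LEC. It was lower in BEC in 3 of 3 libraries without overlap, with a log2 fold change of -2.09 ± 0.34 (edgeR adjusted p = 0.00224), and it stayed called under all 18 alternatives (-2.69 to -1.78). Icam2 was at 218, 166 and 89.6 CPM in BEC and at 173, 169 and 177 CPM in LEC, with a log2 fold change of -0.25 ± 0.26 that did not pass (edgeR adjusted p = 0.582). Its sign turned without library 3 (0.14) and without the barcodes of a second gate (0.38).

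The other adhesion genes moved in both directions between BEC and LEC. Of 25 other adhesion and transmigration genes, 23 were tested, 9 were higher and 5 lower in BEC, with a median log2 fold change of -0.10 against -0.09 over all genes. Jam2, a junctional adhesion molecule, averaged 184 ± 80.4 CPM in BEC and 1.23 ± 1.56 CPM in LEC, a log2 fold change of 7.64 ± 0.64 (edgeR adjusted p = 5.41e-05). Stab1, a scavenger receptor of lymphatic and sinusoidal endothelium that also binds leukocytes, averaged 60.3 ± 30.9 CPM in BEC and 788 ± 110 CPM in LEC, a log2 fold change of -3.87 ± 0.31 (edgeR adjusted p = 4.59e-05). Of 10 enzymes of selectin ligands, 8 were tested, with Chst2 and B3gnt3 higher and Chst1 lower. Chst2 averaged 41.7 ± 23.3 CPM in BEC and 4.35 ± 0.557 CPM in LEC, and Chst1 averaged 21.5 ± 8.17 CPM in BEC and 57.3 ± 9.99 CPM in LEC (SD, n = 3 each). Chst1 did not pass when library 1 was left out (adjusted p = 0.0858 by edgeR).

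The chemokines divided the 2 endothelia. Of 15 chemokines and atypical receptors, 5 were higher in BEC (Ackr1, Cx3cl1, Cxcl10, Cxcl12, Cxcl16) and 6 were lower (Ackr2, Ackr3, Ccl2, Ccl7, Ccl21a, Cxcl2). Cxcl12 averaged 801 ± 58.2 CPM in BEC and 64.7 ± 5.17 CPM in LEC, a log2 fold change of 3.61 ± 0.18 (edgeR adjusted p = 5.91e-06). Ccl21a, the lymphatic chemokine that guides dendritic cells, averaged 124 ± 37.2 CPM in BEC and 10011 ± 677 CPM in LEC, a log2 fold change of -6.34 ± 0.26 (edgeR adjusted p = 5.2e-06). Ccl21a has near-identical gene copies, so its count is uncertain. Of 9 genes of Weibel-Palade granules, Vwf and Plat rose and Angpt2 fell: Vwf averaged 300 ± 194 CPM in BEC and 1.88 ± 2.62 CPM in LEC, and Angpt2 averaged 30.3 ± 7.65 CPM in BEC and 61.5 ± 7.81 CPM in LEC (SD, n = 3 each). The Angpt2 call was held in 15 of 18 alternatives and lost without barcodes of a second gate (log2 fold change -0.63) and without library 1 or 3.

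Of 21 genes of NF-kB signalling and its targets, 7 were higher in BEC and none was lower, with a median log2 fold change of 0.26 against -0.09 over all genes. The rises numbered 3 to 10 under the alternatives. Bcl3, a nuclear partner of NF-kB, averaged 83.5 ± 21.3 CPM in BEC and 25.2 ± 2.59 CPM in LEC, a log2 fold change of 1.69 ± 0.22 (edgeR adjusted p = 0.000562). Of 9 membrane linkers that tie ICAM and VCAM tails to actin, Flna, Msn and Rdx rose, and without library 1 or 2 only 1 of the 9 did. Flna, which smooth muscle also expresses, averaged 494 ± 289 CPM in BEC and 98.7 ± 29.0 CPM in LEC, and it was highest in library 3, as were the smooth-muscle markers. Without BEC and LEC of a second gate its log2 fold change was 0.025 (edgeR adjusted p = 0.962), against 2.18 with them. On the leukocyte side, 5 of 13 integrin and selectin-ligand genes could be tested in these CD45-negative sorts: Itga4 was higher in BEC (25.3 ± 13.2 CPM, against 1.55 ± 0.797 CPM in LEC) and Itga9 was lower (39.5 ± 9.17 CPM, against 234 ± 27.9 CPM in LEC).

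A second fit compared each class that had at least 10 barcodes in every library with LEC, over 11327 genes. Madcam1 did not pass its filter on low counts, and 17 of the 25 combinations of the other 5 members with 5 classes passed the threshold. The share of all genes called was 27.4% in Ackr1-negative BEC (15.4% higher, 12% lower), 70.5% in epithelial barcodes (33.3% higher, 37.2% lower) and 39.6% in fibroblasts (19.6% higher, 20.1% lower). It was 43% in macrophages (18.5% higher, 24.5% lower) and 42.4% in T cells (15.6% higher, 26.8% lower). Icam1 was lower than in LEC in all 5 classes, with log2 fold changes of -1.84 ± 0.38 in fibroblasts (edgeR adjusted p = 0.000803) to -5.71 ± 0.45 in epithelial barcodes (edgeR adjusted p = 9.34e-09). Icam2 was lower in all but the Ackr1-negative BEC, where the log2 fold change was -0.29 ± 0.28 (edgeR adjusted p = 0.495). Vcam1 was higher than in LEC in Ackr1-negative BEC (3.63 ± 0.54, edgeR adjusted p = 5.87e-05), fibroblasts (5.66 ± 0.51, edgeR adjusted p = 1.11e-07) and macrophages (5.89 ± 0.53, edgeR adjusted p = 1.05e-07), and lower in epithelial barcodes (-4.50 ± 1.05, edgeR adjusted p = 0.00105). Selp was lower in the 4 non-endothelial classes, the calls in T cells and macrophages being lost without library 2 and that in T cells also without the block, and in Ackr1-negative BEC it had a log2 fold change of 0.52 ± 0.73 (edgeR adjusted p = 0.659). No Sele comparison passed in this fit.

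Within LEC the genes differed in how widely they were found. With every barcode reduced at random to 3000 UMIs, which left out 460 shallower LEC, an Icam1 UMI was present in 79.3%, 68.2% and 76.8% of LEC, and an Icam2 UMI in 37.1%, 39.0% and 39.3%. Before this reduction the shares were 88.0%, 80.3% and 84.9% for Icam1 and 65.7%, 65.6% and 62.7% for Icam2. For comparison, in classes other than endothelium the reduced Icam1 share averaged 11.7 ± 7.43% in epithelial and 3.34 ± 2.90% in B or plasma cells (SD, n = 3 each), and the Icam2 share averaged 0.473 ± 0.583% in epithelial and 4.05 ± 4.92% in B or plasma cells. Lymphocytes are known to make both molecules and epithelium can make Icam1, so these shares are not a measure of background alone. Median depth was 6806 to 8149 UMIs in LEC, 21052 to 27043 UMIs in epithelial barcodes and 21140 to 24907 UMIs in B or plasma cells. Icam1 levels also spread widely among LEC. In library 1 the LEC at the 10th percentile had no Icam1 UMI, the median LEC had 12.4 and the LEC at the 90th percentile had 39.7 per 10000 UMIs, and the medians of libraries 2 and 3 were 5.76 and 10.8.

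Selp was carried by few LEC at high counts. After reduction to 3000 UMIs, 5.35%, 5.89% and 6.33% of LEC had a Selp UMI, against 0.419 ± 0.493% of epithelial barcodes and none of the B or plasma cells. Without the reduction, LEC with 5 or more Selp UMIs made up 2.53%, 2.30% and 2.59% of LEC and held 73.5%, 74.5% and 65.5% of the Selp UMIs of LEC in libraries 1, 2 and 3. In library 2, 25.8% of the Selp UMIs of LEC came from the 5 LEC-gated barcodes rich in Madcam1, which also held Flt1 and Ackr1 UMIs. Platelets also hold P-selectin. The summed platelet markers stood at 4.50, 11.6 and 3.91 CPM in LEC with a Selp UMI, against 2.04, 8.21 and 3.83 CPM in LEC without, higher with Selp in 3 of 3 libraries, and their part in the Selp result was not tested. The same markers summed to 1903, 1432 and 1104 CPM in macrophage-gated barcodes of libraries 1, 2 and 3.

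Vcam1, Sele and Madcam1 were rare in LEC. A Vcam1 UMI was present in 1.65%, 2.60% and 1.51% of LEC before reduction, and in 0.687%, 1.19% and 0.804% after it, against none of the reduced epithelial barcodes and 0.877 ± 1.52% of B or plasma cells. That B or plasma cell share is 1 of 64 barcodes, too few to place the LEC shares above or level with it. Over all libraries Vcam1 stood at 4.52 CPM in LEC, with a 95% exact Poisson interval of 4.19 to 4.87 CPM. In B or plasma cells it stood at 0.763 CPM (0.0193 to 4.25 CPM), and both intervals cover counting error only. LEC without barcodes of a second gate averaged 2.72 CPM, which lies within the interval of B or plasma cells. A Sele UMI was present in 0.773%, 0.340% and 0.351% of LEC before reduction (95% exact binomial interval of 0.563% to 1.04% in library 1). Meanwhile 0 of 552 epithelial barcodes allow a share of up to 0.543%. The shares of libraries 2 and 3 lie below that limit and are not set apart from epithelial barcodes by this measure. After reduction the Sele share of LEC averaged 0.270 ± 0.205% (SD, n = 3). A Madcam1 UMI was present in 0.127% of all LEC, and 24 barcodes carried it.

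LEC with an Icam1 UMI were tested against LEC without, over barcodes reduced to 3000 UMIs (4385, 3323 and 6211 with, against 1146, 1551 and 1878 without). The other inducible adhesion genes rose with Icam1: 3 of the 4 members tested rose, where 12.2% of 11932 genes rose and 6.8% fell (19% in all). Selp stood at 51.9, 60.9 and 60.1 CPM in LEC with an Icam1 UMI, against 12.2, 12.0 and 8.16 CPM in LEC without, and the groups were far apart. Its log2 fold change was 2.61 ± 0.11 (edgeR quasi-likelihood test with Benjamini-Hochberg adjustment, adjusted p = 1.49e-16), higher in 3 of 3 libraries and called under all 17 alternatives. Sele rose by a log2 fold change of 4.66 ± 0.76 (edgeR adjusted p = 3.87e-05): its UMIs numbered 88 in LEC with an Icam1 UMI and 1 in LEC without, a ratio per UMI of 28.9 with a 95% counting interval of 5.06 to 1155. Vcam1 stood at 3.57, 7.02 and 3.54 CPM with an Icam1 UMI, against 0, 2.36 and 1.95 CPM without, a log2 fold change of 1.71 ± 0.35 (edgeR adjusted p = 0.00059). The Vcam1 call was lost without the library block (edgeR adjusted p = 0.204). Icam2 went the other way, at 165, 175 and 171 CPM with an Icam1 UMI against 202, 200 and 206 CPM without, but its normalised log2 fold change of -0.11 ± 0.04 did not pass (edgeR adjusted p = 0.0855).

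**Figure D3:**
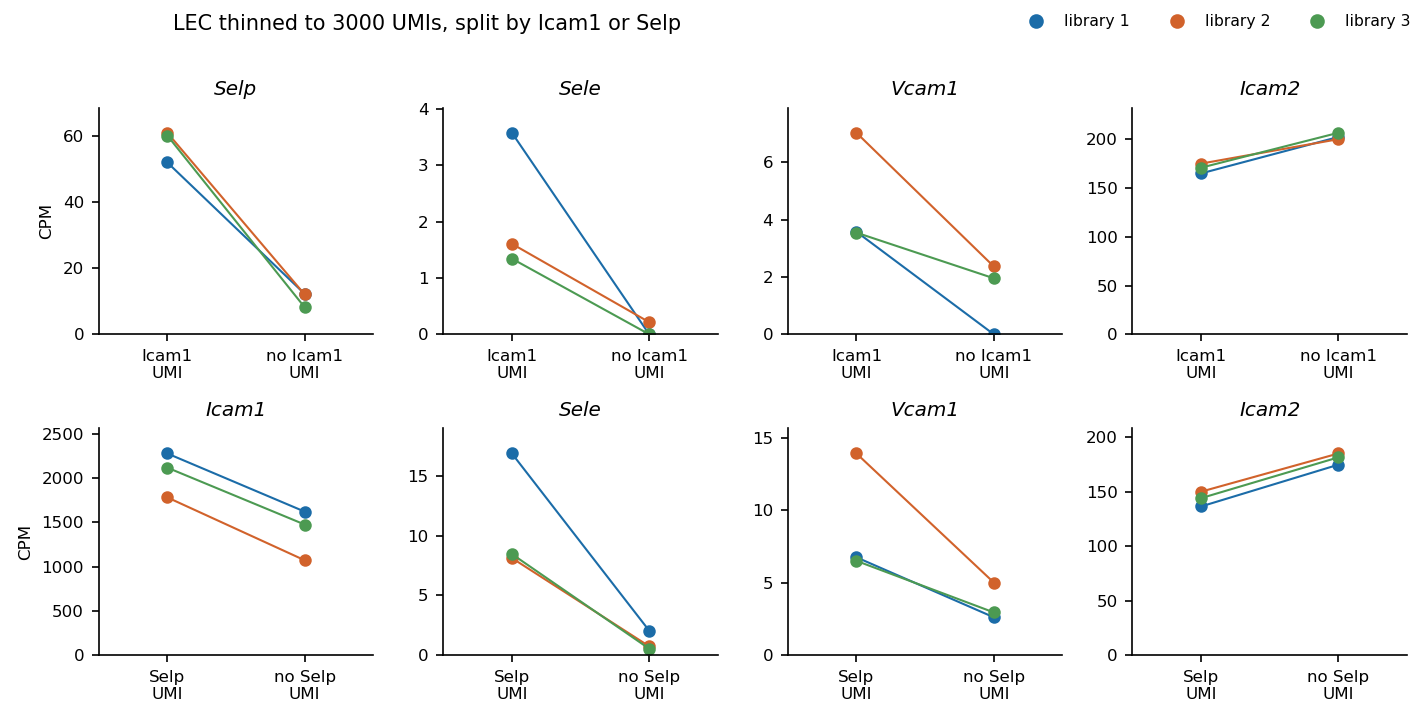
CPM of adhesion genes (y axes) in LEC reduced to 3000 UMIs, with a UMI of the splitting gene at the left and without at the right of each panel; lines join the 2 values of a library. The upper row splits LEC by Icam1 and the lower row by Selp: Selp, Sele and Vcam1 are higher with an Icam1 UMI in all 3 libraries, Icam1, Sele and Vcam1 are higher with a Selp UMI, and Icam2 is lower in both.

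Most of the NF-kB genes rose with Icam1. Of 21 tested, 15 rose, none fell and 6 did not pass, with a median log2 fold change of 0.79 against -0.00 over all genes, and the rises numbered 14 to 16 under the 17 alternatives. Tnfaip3, a feedback inhibitor of the pathway, averaged 154 ± 9.67 CPM with an Icam1 UMI and 26.2 ± 6.56 CPM without, a log2 fold change of 2.73 ± 0.08 (edgeR adjusted p = 1.93e-20). Nfkbia, which encodes the inhibitor that holds NF-kB in the cytoplasm, averaged 2512 ± 265 CPM with an Icam1 UMI and 568 ± 56.4 CPM without, and Nfkbiz averaged 961 ± 90.1 CPM with and 175 ± 23.3 CPM without (SD, n = 3 each). The subunit genes Rel, Relb, Nfkb2, Rela and Nfkb1 were among the 15 that rose. The receptor genes Tnfrsf1a, Tnfrsf1b, Ltbr and Il1r1 did not pass.

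Chemokines of neutrophils and monocytes were among the largest rises. Of 15 chemokine and atypical receptor genes, 13 were tested, 9 rose and 2 fell (Ccl25, called in 13 of 17 alternatives with its sign turned at full depth, and Cxcl12), with 6 to 9 rises under the alternatives. Cxcl2 stood at 467, 437 and 574 CPM in LEC with an Icam1 UMI, against 32.6, 39.1 and 43.0 CPM in LEC without, a log2 fold change of 3.82 ± 0.06 (edgeR adjusted p = 5.88e-25). Cxcl1 rose by 3.03 ± 0.06 and Ccl2 by 2.84 ± 0.08 on the log2 scale (edgeR adjusted p = 2.24e-23 and 1.61e-20). Other genes among the 10 largest rises were the immediate-early genes Egr4 (28.3 ± 8.65 CPM with, 1.60 ± 0.272 CPM without), Nr4a3 (24.3 ± 0.398 CPM with, 3.02 ± 1.36 CPM without) and Csrnp1 (129 ± 8.04 CPM with, 19.6 ± 1.95 CPM without), and the cytokine gene Lif (26.0 ± 6.92 CPM with, 4.25 ± 1.98 CPM without).

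Of 25 other adhesion genes, 21 were tested, 4 rose and 2 fell, where 12.2% of all genes rose and 6.8% fell. Icam4 and Icam5, the next genes downstream of Icam1 on chromosome 9, were among the rises: Icam4 averaged 4.87 ± 0.488 CPM with an Icam1 UMI and 0.464 ± 0.368 CPM without, and Icam5 averaged 4.04 ± 1.62 CPM with and 0.523 ± 0.459 CPM without (SD, n = 3 each). With 556 bases between Icam1 and Icam4 and 1478 between Icam4 and Icam5, reads that run on from Icam1 cannot be told apart from their own transcripts here. Pecam1, the pan-endothelial CD31 gene, fell by 0.14 ± 0.04 on the log2 scale (edgeR adjusted p = 0.0076), and Cd151 fell by 0.16 ± 0.05 (edgeR adjusted p = 0.0224). The Cd151 call was held in 11 of 17 alternatives and lost without library 1, at full depth and with DESeq2 (adjusted p = 0.434), among others. None of the 8 selectin ligand enzymes tested passed, and of the Weibel-Palade genes only Angpt2 rose (64.7 ± 5.40 CPM with, 53.2 ± 4.57 CPM without).

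Among the 10 largest falls with Icam1 were genes of other cell types. Iglc1, Lypd8, Defa21 and Reg3b, genes of plasma cells, enterocytes and Paneth cells, were 4 of them. The Reg3b call was held in 13 of 17 alternatives, which ran up to a log2 fold change of 0.40 with the sign turned. Reg3b stood at 12.2, 213 and 39.7 CPM in LEC with an Icam1 UMI, against 61.7, 727 and 98.0 CPM in LEC without, and its log2 fold change was -1.56, against 0.082 when LEC of a second gate were left out. The summed epithelial markers stood at 21.8, 122 and 34.2 CPM in LEC with an Icam1 UMI, against 69.8, 298 and 73.7 CPM in LEC without, and all 5 of them were detected on both sides in every library. Mitochondrial UMIs stood at 20720, 18897 and 18531 CPM with an Icam1 UMI, against 23410, 21429 and 21080 CPM without. Their part in the result was not tested. In LEC that passed no other gate and had no Flt1, Ackr1 or Plvap UMI, an alternative chosen after seeing the data, 1450 genes rose and 766 fell, near the 1455 and 811 in all LEC, and without LEC of a second gate 1563 rose and 845 fell.

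**Figure D4:**
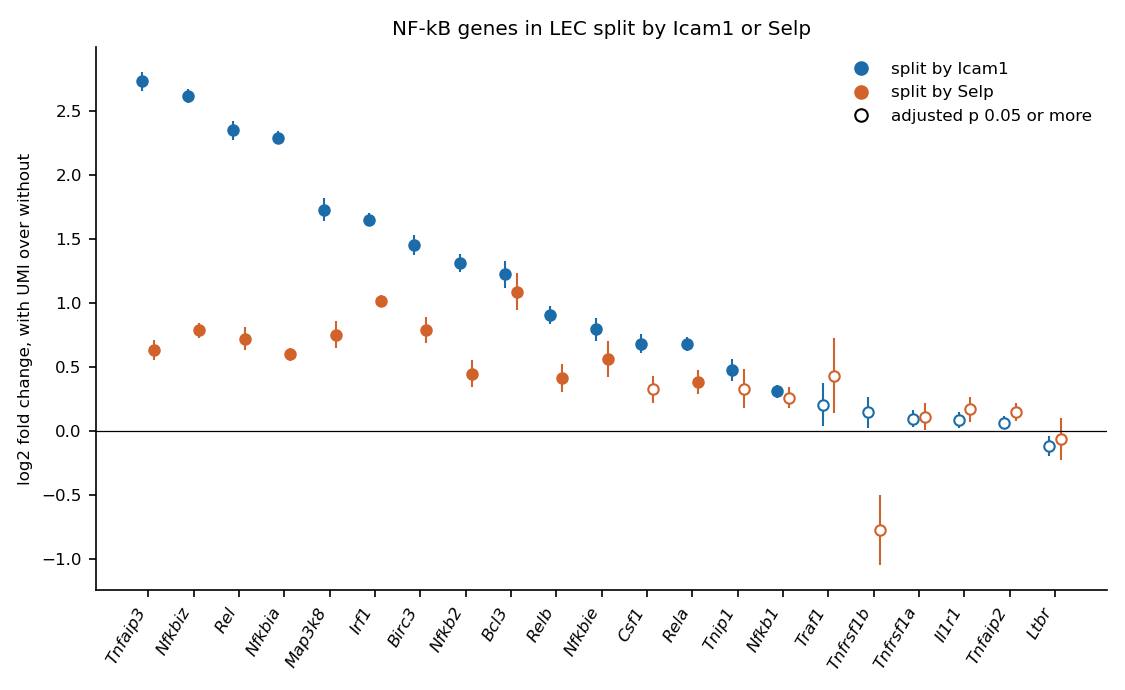
Log2 fold change, with its SE, of 21 NF-kB genes (x axis) in LEC with a UMI of the splitting gene over LEC without, for the splits by Icam1 (blue) and Selp (orange), open where the adjusted p was 0.05 or more. With Icam1, 15 of 21 genes rose, led by Tnfaip3, and with Selp 12 rose, led by Bcl3.

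LEC with a Selp UMI (296, 287 and 512, against 5235, 4587 and 7577 without) were compared in the same way. Of 4 members tested, 3 rose and 1 fell, where 3.1% of 11706 genes rose and 0.641% fell (3.74% in all). Sele stood at 16.9, 8.13 and 8.46 CPM with a Selp UMI, against 2.04, 0.727 and 0.528 CPM without, a log2 fold change of 3.49 ± 0.43 (edgeR adjusted p = 1.04e-07). Icam1 stood at 2278, 1782 and 2118 CPM with a Selp UMI, against 1621, 1071 and 1475 CPM without, a log2 fold change of 0.65 ± 0.04 (edgeR adjusted p = 1.1e-14). Both were higher in 3 of 3 libraries without overlap. Vcam1 rose by 1.40 ± 0.36 on the log2 scale (edgeR adjusted p = 0.0146), a call lost without any 1 of the libraries (edgeR adjusted p of 0.0798, 0.186 and 0.0584 without libraries 1, 2 and 3) and held in only 7 of 16 alternatives. Icam2 stood at 136, 150 and 144 CPM with a Selp UMI, against 175, 185 and 181 CPM without, and fell by 0.26 ± 0.08 on the log2 scale (edgeR adjusted p = 0.0422), a call lost likewise without any 1 library (edgeR adjusted p of 0.314, 0.0561 and 0.240) and held in 9 of 17 alternatives.

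Of the 21 NF-kB genes, 12 rose with Selp and none fell, with a median log2 fold change of 0.43 against -0.01 over all genes and 6 to 13 rises under the alternatives. Bcl3 averaged 45.2 ± 6.90 CPM with a Selp UMI and 23.3 ± 3.37 CPM without, and Irf1, an interferon-response factor, averaged 1029 ± 142 CPM with and 535 ± 57.0 CPM without. Socs3, a feedback inhibitor of cytokine signalling, stood at 1209, 1182 and 1023 CPM with a Selp UMI, against 468, 445 and 493 CPM without, a log2 fold change of 1.34 ± 0.05 (edgeR adjusted p = 1.09e-21). Il6 averaged 19.3 ± 12.9 CPM with and 5.01 ± 1.20 CPM without. Adamts4 averaged 121 ± 29.1 CPM with and 45.1 ± 3.39 CPM without, and Nppc, which encodes a natriuretic peptide, averaged 136 ± 42.7 CPM with and 58.2 ± 11.2 CPM without (SD, n = 3 each).

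Of 13 chemokine genes tested with Selp, 6 rose and Ccl25 fell, with 1 to 8 rises under the alternatives. Cxcl9 stood at 15.8, 91.8 and 72.9 CPM with a Selp UMI, against 13.1, 18.6 and 17.3 CPM without, a log2 fold change of 1.95 ± 0.18 (edgeR adjusted p = 8.06e-11), the difference being small in library 1. Plvap, a blood capillary and venule gene, stood at 10.1, 68.5 and 7.81 CPM with a Selp UMI, against 7.90, 13.1 and 7.13 CPM without, and was far apart in library 2 alone, the call being lost without that library (log2 fold change 0.30). Genes of the granules that store P-selectin did not follow: none of the 7 Weibel-Palade genes tested passed, and Angpt2 averaged 63.8 ± 6.36 CPM with and 61.6 ± 6.03 CPM without. Zg16, a goblet-cell gene, averaged 10.0 ± 6.43 CPM with and 39.3 ± 27.8 CPM without, a call lost without LEC of a second gate, and the summed epithelial markers stood at 18.0, 82.5 and 41.0 CPM with a Selp UMI, against 32.5, 184 and 43.5 CPM without.

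LEC with a Vcam1 UMI were few (38, 58 and 65, against 5493, 4816 and 8024 without), and fibroblast transcripts led their rises. Of 11650 genes, 2.16% rose and 0.841% fell (3% in all). Col3a1 stood at 333, 626 and 769 CPM with a Vcam1 UMI, against 6.86, 30.7 and 10.8 CPM without, a log2 fold change of 5.29 ± 0.18 (edgeR adjusted p = 5.79e-176). Without LEC of a second gate, which is set by Col3a1 among others, it was 0.14 and did not pass. The fibroblast markers Lum, Col6a1, Mfap5, Pcolce and Col5a1 summed to 167, 293 and 251 CPM with a Vcam1 UMI, against 4.98, 28.4 and 7.44 CPM without. Macrophage markers summed to 237, 1144 and 415 CPM with a Vcam1 UMI, against 300, 297 and 284 CPM without. The platelet markers summed to 8.77, 167 and 82.1 CPM with a Vcam1 UMI, against 2.12, 6.51 and 3.20 CPM without, with Pf4 the only one of the 5 detected with a Vcam1 UMI in libraries 2 and 3. The same list summed to 1903, 1432 and 1104 CPM in macrophage-gated barcodes, so it is not particular to platelets here. The part of these fibroblast, macrophage and platelet-list transcripts in the result was not tested. Without LEC that passed the gate of another cell type the rises numbered 73 and the falls 26, against 252 and 98 in all LEC.

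Of the members, Sele and Selp rose with Vcam1. Selp stood at 87.7, 339 and 103 CPM with a Vcam1 UMI, against 43.4, 41.8 and 47.6 CPM without, a log2 fold change of 1.94 ± 0.22 (edgeR adjusted p = 1.61e-16). The rise was 1.10 without barcodes of a second gate (edgeR adjusted p = 0.0128) and 1.02 without library 2, where it did not pass (edgeR adjusted p = 0.0783). Sele had 12 UMIs with Vcam1, at 0, 34.5 and 30.8 CPM, against 2.85, 0.761 and 0.789 CPM without, a log2 fold change of 4.26 ± 0.85 (edgeR adjusted p = 5.65e-05) that was lost without library 2 or 3 (edgeR adjusted p of 0.364 and 0.199). Icam1 stood at 1965, 1557 and 1774 CPM with a Vcam1 UMI, against 1654, 1108 and 1514 CPM without, and did not pass (log2 fold change 0.27 ± 0.09, edgeR adjusted p = 0.0642). Without barcodes of a second gate it passed at 0.45 (edgeR adjusted p = 0.000117). Of the 21 NF-kB genes, Csf1, Nfkbia, Nfkbiz and Tnfaip3 rose, and the rises numbered 1 to 7 under the alternatives. Ccl21a fell, at 8121 ± 225 CPM with a Vcam1 UMI and 10419 ± 1102 CPM without (SD, n = 3 each), a call held in 11 of 16 alternatives and lost without library 1 or 2 and without LEC of a second gate.

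Co-detection in the unreduced LEC was set against the number expected from the 2 shares within 10 bins of depth, as a description. Sele and Selp occurred together in 35 LEC where 11.1 were expected, with ratios of 2.86, 3.51 and 3.28 in libraries 1, 2 and 3. Of 90 LEC with a Sele UMI, all 90 had Icam1 (83.6 expected) and 38.9% had Selp. Of 1763 LEC with Selp, 96.9% had Icam1, with ratios of 1.08, 1.13 and 1.11. Selp and Vcam1 met in 54 LEC (41.7 expected), with ratios of 1.28, 1.13 and 1.49. Icam2 did not share this pattern: its ratios with Selp were 0.924, 0.955 and 0.935, and its ratio with Icam1 averaged 0.990 ± 0.00443 (SD, n = 3). Ratios with Icam1 cannot rise far because most LEC already hold it.

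**Figure D5:**
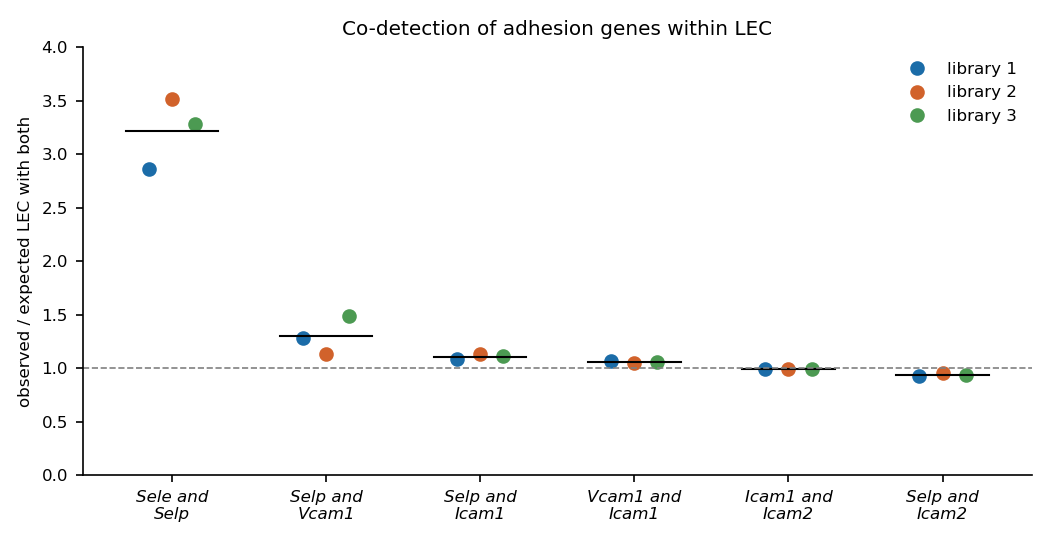
Number of LEC with UMIs of both genes over the number expected within depth bins (y axis, 1 marked by the dashed line) for 6 pairs of genes (x axis), with 1 point per library and a bar at the mean. Sele with Selp lies at 2.86 to 3.51, and Icam2 with Selp lies below 1 in all 3 libraries.

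The genes whose levels ran most like each member were sought over 28 sums of 10 classes, with Pearson's r of log2(CPM + 1) among 12982 genes. The sums share libraries, differ in depth and hold as few as 3 barcodes, so r is a description. Some of the genes named were low throughout: D130058E05Rik, Thsd1 and Gm9889 reached at most 44.2, 66.3 and 31.0 CPM in any sum. For Madcam1 the nearest were Upk3bl (r = 0.969), Cytl1 (0.917) and D130058E05Rik (0.909). For Sele they were St8sia2 (0.882) and Lhx6 (0.881), and for Selp Thsd1 (0.910), Gm9889 (0.904) and Gata2 (0.899). Icam2 ran nearest to Unc45b (0.804), Thsd1 (0.802) and Gata2 (0.799), so that Thsd1 and Gata2, the second an endothelial transcription factor, stood in both lists. Icam1 ran nearest to Tmem30a (0.880) and Tgfbr2 (0.864), and Vcam1 to Apoe (0.807) and Itm2c (0.791). Among the members, Sele and Selp had r = 0.865, Madcam1 and Sele 0.835, and Vcam1 and Icam2 0.0873.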

How the data were processed

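Per the labels' protocols, libraries were made with Chromium 3′ v3 chemistry, and the submitters' processing notes list Cell Ranger 6.1.2, bcl2fastq 2.2 and, as genome, mm10. The deposited values are raw UMI counts per gene and barcode, with no normalization by the authors in the files; rows that share a symbol were summed. Libraries 1, 2 and 3 held 6931, 7678 and 9932 barcodes and 58857545, 69231794 and 74571090 UMIs, which sets the precision of each count; intervals and limits for 0 (3 counts, 95% confidence) cover counting error only. Barcodes with under 500 genes or over 15% mitochondrial UMIs were left out. The members and lists were chosen with earlier results of these data known.

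LEC and BEC were gated as described above. Other classes needed at least 2 UMIs of at least 2 of 4 gate genes, no Prox1, under 3 Flt1 and no other such gate; 1653 barcodes passed none and 285 passed more than 1. Doublets were not removed: Scrublet in scanpy 1.11.5 called 1, 5 and 1 barcodes, too few to have worked, so leaving out the 323, 360 and 717 highest scores is an alternative. Per library and class, raw UMIs were added up and fitted in edgeR 4.0.16 under R 4.3.3, with TMM scaling, the default filterByExpr, a quasi-likelihood test and a term for the library, because the 2 sums compared share 1 preparation, and Benjamini-Hochberg adjustment at 0.05. The SE of a log2 fold change was taken as its size over the root of F. Gate and splitting genes were not reported from the fit they define. DESeq2 1.42.0, other normalization, filters, gates and depths, each library left out and no block were alternatives. The test of Ackr1-positive against Ackr1-negative BEC needed 5 barcodes per library and was not run. Named genes were the members, the largest called change of each list in each direction (the same sign in 3 libraries, 20 CPM) and, in splits of LEC, the 10 largest each way (10 CPM); other list genes were named after their values were seen. On simulated counts with known changes, the fit of BEC against LEC (13411 genes) recovered 18.2% of changes of 1 and 63.5% of changes of 2 on the log2 scale and called 31 unchanged genes. The Icam1 split (11761 genes) recovered 87.6% and 100%, the Selp split (11570 genes) 66.7% and 91.9%, and the Vcam1 split (11353 genes) 19.6% and 54.6%, with 5, 5 and 4 unchanged genes called.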

Additional observations from a re-analysis of the deposited data

How the results depend on the processing

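Of the main counts, levels and ratios recalculated under each alternative, 236 stayed near their value (within 1.5 times for a count, 1 SD for a level or ratio) and 30 did not. For levels and ratios, leaving out 1 of 3 libraries cannot move the mean by 1 SD. Those cases counted as near by construction and say nothing on dependence on a library. Madcam1 in LEC, for example, averaged 1.94 CPM with all libraries and 0.0906 CPM without library 2. Leaving out 1 library gave 1713 to 2669 called genes for BEC against LEC (2613 with all), 1496 to 1903 for the Icam1 split (2266), 307 to 363 for the Selp split (438) and 117 to 201 for the Vcam1 split (350). Without the replicate block the calls numbered 3509, 644, 71 and 98, and with DESeq2 the Icam1 and Selp splits gave 777 and 235; the cause was not tested. The Vcam1 split gave 1114 calls at full depth, 99 without LEC of a second gate and 91 in LEC with no blood endothelial UMI. Icam2 averaged 236 CPM in BEC without barcodes of a second gate, and in LEC 182 CPM without them and 180 CPM with no blood endothelial UMI. Co-detection ratios without depth bins and at 3000 UMIs were 4.57 and 5.18 for Sele with Selp, 1.15 and 1.22 for Selp with Icam1, 1.00 and 0.86 for Selp with Icam2, 1.64 and 2.05 for Selp with Vcam1, 1.12 and 1.18 for Vcam1 with Icam1, and 1.01 and 0.97 for Icam1 with Icam2. Vcam1 with Icam1 was 1.08 in LEC with no blood endothelial UMI and 1.08 without LEC of a second gate. Signs turned at full depth in the Icam1 split for Ccl25 (0.16), Iglc1 (4.85), Defa21 (0.65), Reg3b (0.40), Defa22 (0.73), Reg3g (0.36), Serpinb1a (0.032), Defa29 (0.31) and Krt19 (0.16), in the Selp split for Lypd8 (0.29), and in the Vcam1 split for Igkc (2.01), Jchain (2.65) and Igha (2.19). In the Vcam1 split at 5000 UMIs they turned for Arfip2 (0.15) and Ppp1r8 (0.086). With no blood endothelial UMI, and without LEC of a second gate, Reg3b was 0.11 and 0.082 in the Icam1 split, and Tff3 was 0.13 and 0.078, Agr2 0.37 and 0.32 and Igha 0.38 and 0.32 in the Selp split; Krt19 was 0.017 without LEC of a second gate. The few BEC limit what could be detected between BEC and LEC.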
